A study of Mus musculus with 4 samples.

Results

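The accessible regions of 10 genes that act in signalling by lysophosphatidic acid (LPA) and sphingosine 1-phosphate (S1P) were followed in the mouse erythroblast line G1ER, with and without the chromatin remodeller CHD7. The genes were the LPA receptors Lpar5, Lpar2 and Lpar6, the S1P receptors S1pr1 and S1pr2, the kinases Sphk1 and Sphk2, the phosphatases Sgpp1 and Sgpp2 and the lyase Sgpl1. A region was assigned to a gene if its middle lay within the gene's span, or if one of the gene's ends was the nearest protein-coding gene end within 100 kb, on GRCm38. By this rule 14 of the 15328 regions of the series were assigned, and they fell to 7 of the 10 genes. The set was chosen by measured values, namely the difference in peak pileup between genotypes near Lpar5 and inside Sgpp2, which ran in opposite directions, so all values of knockout against wild type below are a description and carry no test.

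ATAC-seq, an assay that uses a transposase to cut and tag accessible DNA, had been run on 2 Chd7-/- libraries and 2 wild-type libraries of 50000 cells each. In both genotypes, replicate 1 is labelled 1 hour and replicate 2 is labelled 2 hours, and transposition took 1 to 2 hours according to the protocol. Cells of both genotypes were G1ER erythroblasts, a line that lacks Gata1 and carries GATA1 fused to an estrogen receptor domain, grown with erythropoietin and stem cell factor and given no treatment. The descriptions of the knockout libraries share the code E9, so genotype and clone cannot be told apart, and nothing states that replicates were separate cultures.

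LPA and S1P are small signalling lipids that act on cells through G protein-coupled receptors. S1P is made inside cells when a sphingosine kinase phosphorylates sphingosine; it is turned back to sphingosine by phosphatases of the endoplasmic reticulum, or is cleaved for good by S1P lyase. Red blood cells are known as a main store of the S1P in plasma, which leaves them through the transporter MFSD2B.

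Of the 10 genes, 9 had start sites in the promoter sequences of RefSeq (GRCm38.p6), with 15 starts in all. Regions of the series covered 5 of these starts, in 4 genes, and the promoters of those starts are shown because the measured openings lie on them. Each runs from 250 bases before to 50 after the start, 5′ to 3′ on the gene's strand, and the capitals mark matches to the motifs GATAA (GATA factors), TGTGGT (RUNX factors), CAGCTG (E-box), GGGCGG (GC box), CCGGAAG (ETS factors) and TGACTCA (AP-1), searched on both strands.
Lpar5, internal start, chr6:125071085-125071384, plus strand: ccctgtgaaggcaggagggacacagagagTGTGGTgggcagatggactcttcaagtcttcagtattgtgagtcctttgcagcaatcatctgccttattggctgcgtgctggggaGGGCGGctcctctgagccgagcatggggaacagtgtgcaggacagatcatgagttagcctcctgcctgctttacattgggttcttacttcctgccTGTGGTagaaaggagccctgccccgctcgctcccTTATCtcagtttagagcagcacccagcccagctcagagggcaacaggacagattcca
Lpar2, chr8:69822315-69822614, plus strand: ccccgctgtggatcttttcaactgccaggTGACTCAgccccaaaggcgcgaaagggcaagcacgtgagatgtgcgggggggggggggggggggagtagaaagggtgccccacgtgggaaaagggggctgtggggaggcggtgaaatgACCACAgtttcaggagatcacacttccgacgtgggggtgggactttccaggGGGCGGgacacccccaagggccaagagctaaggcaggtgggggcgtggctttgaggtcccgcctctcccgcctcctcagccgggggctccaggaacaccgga
S1pr2, chr9:20976744-20977043, minus strand: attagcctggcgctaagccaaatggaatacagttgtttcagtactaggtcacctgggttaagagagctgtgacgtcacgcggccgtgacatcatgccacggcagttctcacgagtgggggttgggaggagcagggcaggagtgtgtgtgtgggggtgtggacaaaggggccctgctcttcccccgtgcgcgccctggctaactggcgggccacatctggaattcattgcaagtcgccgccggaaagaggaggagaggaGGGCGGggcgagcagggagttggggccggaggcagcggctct
Sphk2, outermost start, chr7:45717953-45718252, minus strand: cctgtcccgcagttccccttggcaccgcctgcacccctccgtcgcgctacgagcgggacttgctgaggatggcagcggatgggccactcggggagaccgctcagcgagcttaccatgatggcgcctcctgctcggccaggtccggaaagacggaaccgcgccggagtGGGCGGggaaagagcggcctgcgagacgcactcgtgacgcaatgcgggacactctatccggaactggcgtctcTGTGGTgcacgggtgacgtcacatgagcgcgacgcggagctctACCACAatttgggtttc
Sphk2, internal start, chr7:45715158-45715457, minus strand: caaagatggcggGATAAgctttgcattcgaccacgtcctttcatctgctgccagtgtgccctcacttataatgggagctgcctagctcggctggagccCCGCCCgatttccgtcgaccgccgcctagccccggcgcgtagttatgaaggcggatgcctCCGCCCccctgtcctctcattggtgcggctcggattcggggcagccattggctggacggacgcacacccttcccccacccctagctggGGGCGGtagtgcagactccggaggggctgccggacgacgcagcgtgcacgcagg
The internal promoter of Lpar5 held 2 RUNX matches, 221 and 41 bases before the start, 1 GC box 136 bases before it and 1 GATA match 7 bases before it. The Lpar2 promoter held 1 AP-1 match, 1 RUNX match and 1 GC box. The outermost Sphk2 promoter held 2 RUNX matches and 1 GC box, the internal one 3 GC boxes and 1 GATA match, and the S1pr2 promoter 1 GC box. Of all 32851 promoters of that table, 16.8% held the RUNX motif, 25.4% the GATA motif, 35.7% the GC box, 16.3% the E-box, 8.86% the ETS motif and 5.20% the AP-1 motif. Promoters of the 10 genes with no region over them held matches too, such as Sgpl1 (1 RUNX match, 4 GC boxes) and Lpar6 (1 GATA match, 1 E-box). Those of Sgpp1 and of the outermost Sphk1 start held none. Matches of letters do not show that a factor was bound.

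The lists held 12443 and 11376 nuclear peaks in knockout replicates 1 and 2, and 11084 and 12043 in wild-type replicates 1 and 2. Total read depth is unknown. Levels below are the pileup, the number of fragments over a peak's summit, recovered from the authors' fold enrichment and p-value. The lowest background of wild-type replicate 1 was 0.787 fragments per base, against 1.01 to 1.08 in the other 3 libraries. Chd7 had 0 regions in any library, and the genotype could not be checked from the peaks. Of 14 erythroid marker genes, 12 had a region and 8 had one called in all 4 libraries, while of 17 markers of other blood lineages 6 had a region and 4 (Cebpe, Gp9, Itga2b and Pf4) had one in all 4 libraries. The 8 erythroid markers included Gata1, which this line is described above as lacking, and Slc4a1 and Hba-a1 had no region. Among all 21887 protein-coding genes, 46.5% had a region and 35.4% had one called in all 4 libraries.

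Of the 14 regions, 7 were called in all 4 libraries, against 56.8% of all regions of the series. A further 2 were called in 3 libraries (10.3% of all regions), 1 in the pair of knockout libraries alone (2.71%), 0 in the pair of wild-type libraries alone (2.25%), 1 in 1 library of each genotype (6.3%) and 3 in 1 library alone (21.7%). Knockout replicates 1 and 2 held 11 and 10 of the regions, and wild-type replicates 1 and 2 held 9 and 11. The 7 shared regions were 397 to 920 bp wide and the other 7 were 200 to 472 bp wide.

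**Figure D1:**
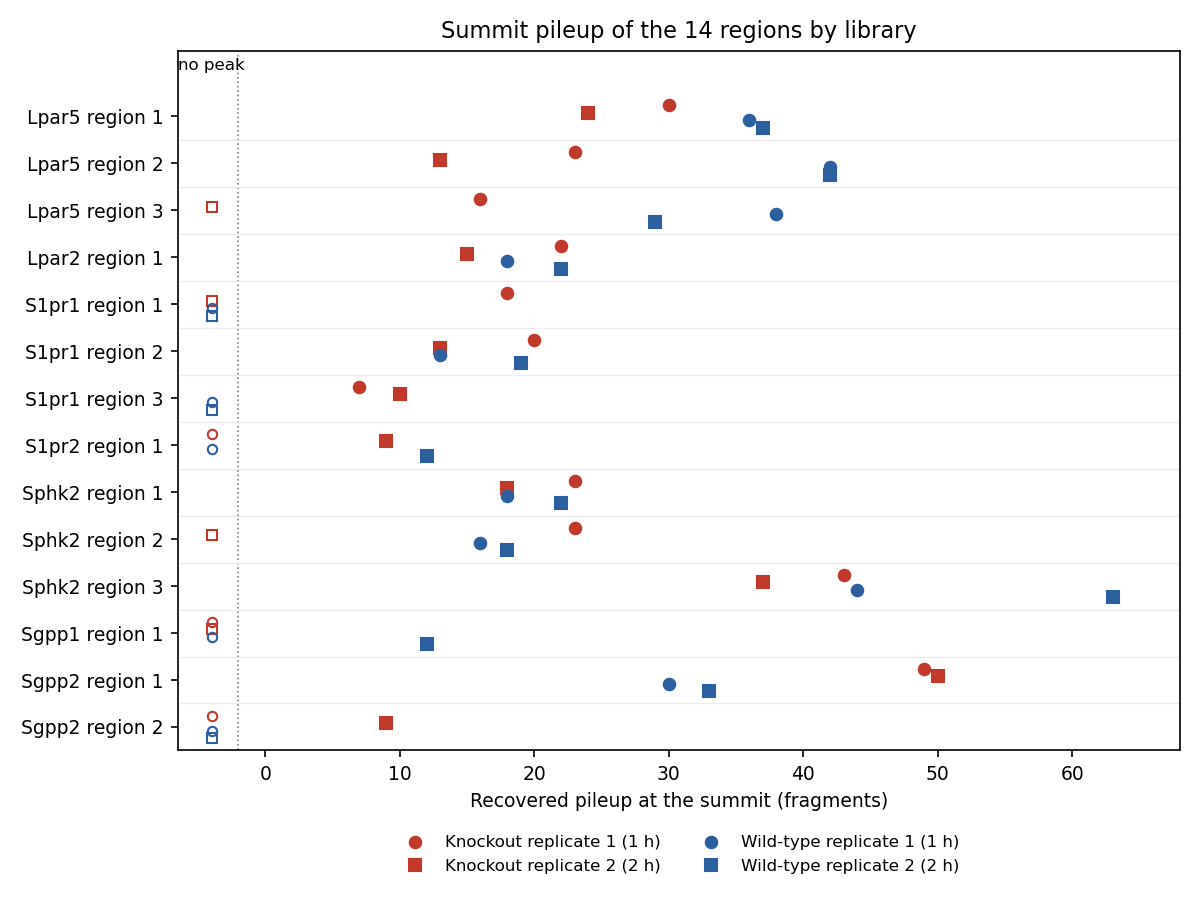
Recovered summit pileup in fragments (x axis) of each of the 14 regions (y axis), with 1 symbol per library; open symbols left of the dotted line stand for libraries with no peak there. Lpar5 region 2 had 23 and 13 fragments in knockout libraries against 42 in both wild-type libraries, and Sgpp2 region 1 had 49 and 50 against 30 and 33.

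Lpar5, on chromosome 6 from 125067844 to 125086129, encodes an LPA receptor, and had 3 regions. Region 1 lay inside the gene (125071120 to 125071787) and covered 265 bases of the internal promoter printed above. Region 2 (125088758 to 125089677) lay beyond the far end of the gene, 2629 bp from it, and region 3 (125089727 to 125090198) followed after a gap of 49 bp. The gene on the other side was Chd4, which encodes a chromodomain helicase related to CHD7.

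Region 2 had a pileup of 23 and 13 fragments in knockout replicates 1 and 2, against 42 and 42 in wild-type replicates 1 and 2. Both knockout libraries were thus below both wild-type libraries, and in knockout replicate 2 the opening was called as 2 separate peaks of 13 and 12 fragments. On the log2(pileup + 1) scale, centred on each library's median, the region averaged -0.47 ± 0.43 in knockout and 0.68 ± 0.15 in wild-type libraries (SD, n = 2 each). The difference was -1.15 with a standard error of 0.23, or 0.451 of the wild-type level. Among the 8704 regions called in all 4 libraries with a recovered pileup, this was the lowest difference. It was -0.95 between the libraries labelled 1 hour and -1.35 between those labelled 2 hours.

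The local background behind region 2 was 2.74 and 2.16 fragments per base in knockout libraries, against 4.32 and 4.06 in wild-type libraries. The authors' fold enrichment, which divides by that background, was 6.42 and 4.43 in knockout and 8.08 and 8.50 in wild-type libraries. On the log2 scale of centred fold enrichment the difference was -0.57.

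Region 3 held 16 fragments in knockout replicate 1 and no called peak in knockout replicate 2, against 38 and 29 in wild-type replicates 1 and 2. It had no place in the fit, which needs a call in every library. Its summit lay within 27 bp in the 3 libraries that had it.

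Region 1, over the internal start, had 30 and 24 fragments in knockout and 36 and 37 in wild-type libraries. The groups did not overlap, and the difference was -0.35 (SE 0.19), which ranked 696 from the lowest of the 8704 regions. It was -0.22 with fold enrichment in place of pileup and -0.58 when libraries were scaled by their lowest background. That scaling moved the median of all regions to -0.21. The outermost start of Lpar5 had no region.

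Around Lpar5, a region (125095495 to 125096297) covered the end of Chd4 that faces Lpar5, with its middle 84 bp from that end. This region had 19 and 24 fragments in knockout and 32 and 36 in wild-type libraries, a difference of -0.56 (SE 0.21). It is assigned to Chd4 and is no member. Farther off, the region at Nop2, a gene of ribosomal RNA modification, had 38 and 34 fragments in knockout and 28 and 27 in wild-type libraries (0.46, SE 0.19). Over the 6 other fitted regions within 100 kb of Lpar5 the differences ran from -0.56 to 0.46, with 3 below and 3 above 0. The low knockout values thus stood side by side from the internal start of Lpar5 to the near end of Chd4.

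**Figure D2:**
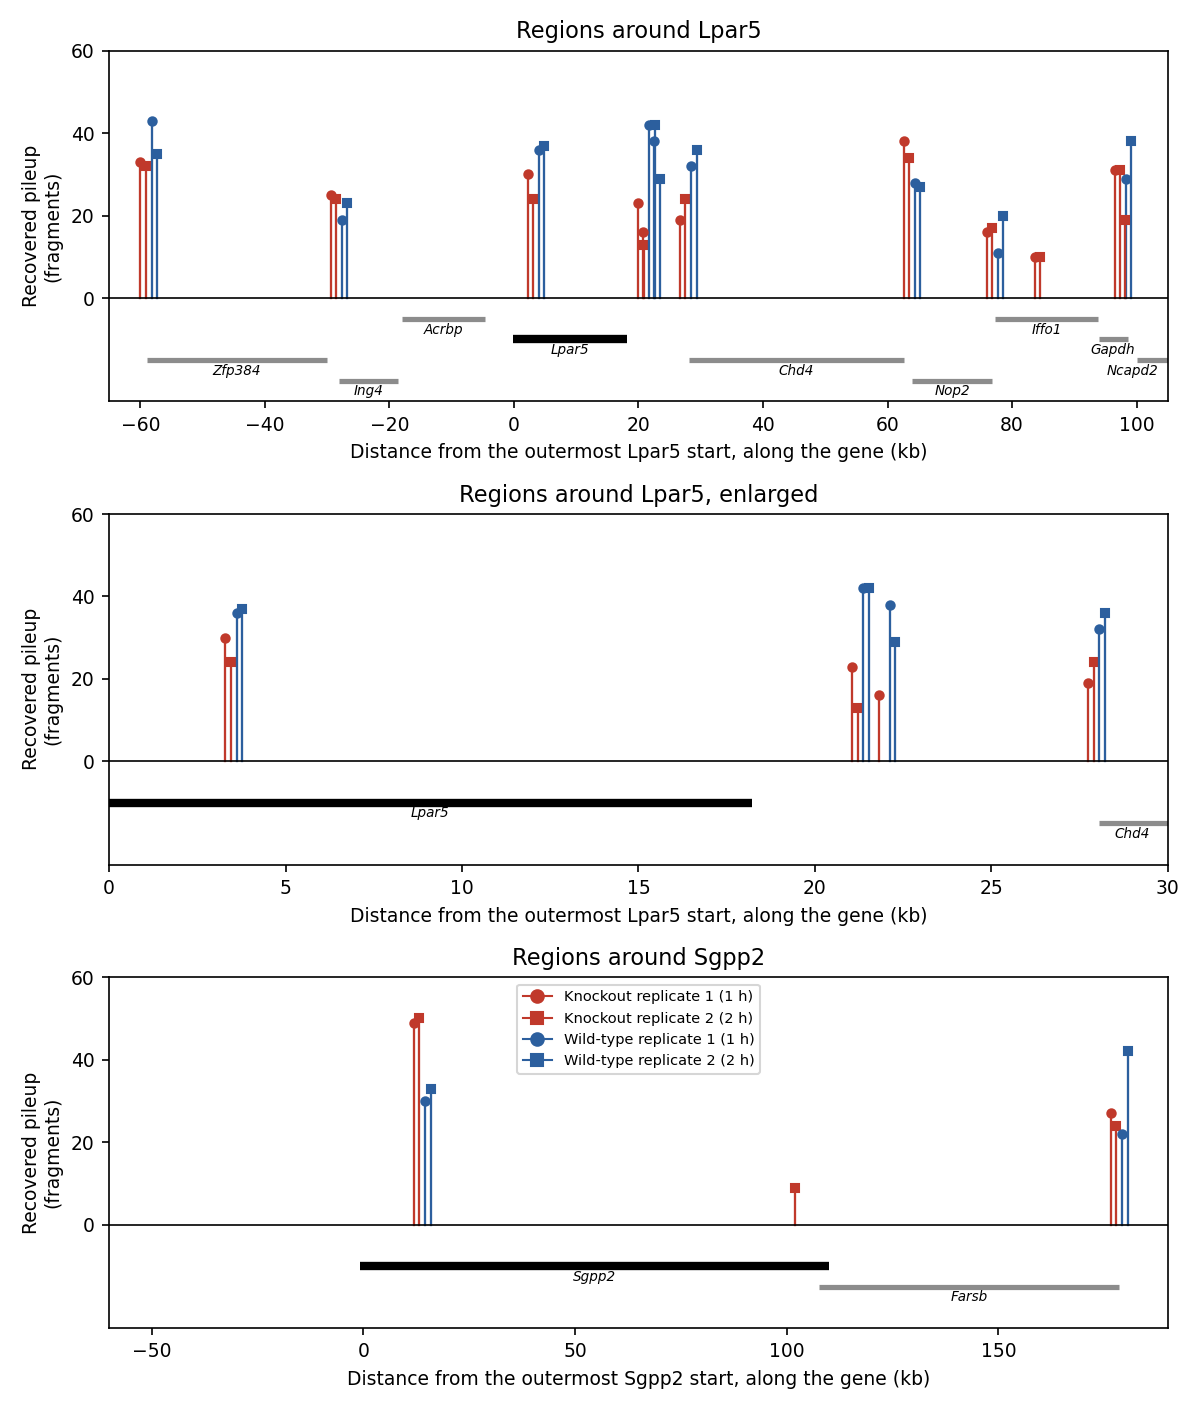
Recovered summit pileup in fragments (y axis) of all regions around Lpar5, around Lpar5 at a larger scale, and around Sgpp2, against the distance in kb from the gene's outermost start (x axis); each stem is 1 library and bars below 0 are protein-coding genes. Knockout stems are lower than wild-type stems at the 3 Lpar5 regions and at the end of Chd4, and higher at Sgpp2 region 1.

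Lpar2, on chromosome 8 from 69822565 to 69831102, encodes another LPA receptor, of the family that also holds the S1P receptors. Its 1 region (69822104 to 69822850) covered the whole printed promoter, with summits at positions -115 to -36 relative to the start. The pileup was 22 and 15 fragments in knockout and 18 and 22 in wild-type libraries. The groups overlapped, with a difference of -0.04 (SE 0.20). The nearest end of another gene, Gmip, lies 607 bp from the middle of this region and outside it.

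Lpar6, a short gene on chromosome 14 (73237891 to 73240358) that lies within the span of the retinoblastoma gene Rb1 and encodes a further LPA receptor, had 0 regions. The nearest region of any gene was 61682 bp from its start.

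S1pr1, on chromosome 3 from 115710433 to 115715055, encodes the receptor known for guiding lymphocytes out of lymphoid organs. Its 3 regions all lay outside the gene. Region 2 (115716142 to 115716583), 1087 bp from the gene end, had 20 and 13 fragments in knockout and 13 and 19 in wild-type libraries. The groups overlapped, and the difference was 0.12 (SE 0.22). Its sign turned to -0.03 without wild-type replicate 1, to -0.09 without knockout replicate 1 and to -0.12 when libraries were scaled by their lowest background. That scaling moved the median of all regions to -0.21.

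S1pr1 region 3 (115758414 to 115758692), its middle 43498 bp from the gene, was the 1 region with a peak in each knockout library and in no wild-type library. It held 7 and 10 fragments in knockout replicates 1 and 2, with a deposited −log10 q of 2.13 and 4.94. With lists of equal length, or with −log10 q of at least 5, 0 of the 10 genes' regions were called in 1 genotype only. Region 1 (115641564 to 115641835) held 18 fragments in knockout replicate 1 and was called in no other library. It was the farthest region assigned, its middle 68734 bp from S1pr1. The first one beyond the 100 kb limit had its middle 113611 bp from the same gene and was called in 1 library.

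S1pr2, on chromosome 9 from 20965952 to 20976793, encodes an S1P receptor that couples to several G protein families. Its region (20976704 to 20977016) covered 273 bases of the promoter and was weak: 9 fragments in knockout replicate 2 and 12 in wild-type replicate 2, both labelled 2 hours. Neither library labelled 1 hour had a peak there.

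Sphk2, on chromosome 7 from 45709463 to 45718002, encodes the sphingosine kinase found largely in the nucleus and mitochondria, and had 3 regions. Region 3 (45717690 to 45718266), over the outermost start, held the highest pileup of the 14 regions in the wild-type libraries. In the knockout libraries Sgpp2 region 1 was higher. It had 43 and 37 fragments in knockout and 44 and 63 in wild-type libraries. The groups did not overlap, but 1 fragment separated knockout replicate 1 from wild-type replicate 1. The difference was -0.31 (SE 0.19), and without wild-type replicate 2 it was -0.16. Its summits lay at positions -34 to -8 relative to that start.

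Sphk2 region 2 (45715100 to 45715493) covered the internal promoter and its middle was 171 bp from an end of Rpl18, a ribosomal protein gene. It had 23 fragments in knockout replicate 1 and no peak in knockout replicate 2, against 16 and 18 in wild-type libraries. Region 1 (45707576 to 45707972), between Sphk2 and Dbp, a circadian transcription factor gene, had 23 and 18 fragments in knockout and 18 and 22 in wild-type libraries (0.11, SE 0.18). That difference was -0.12 when libraries were scaled by their lowest background, a scaling that moved the median of all regions to -0.21, and 0.36 with fold enrichment in place of pileup. It was 0.03 without knockout replicate 1 and 0.20 without knockout replicate 2. Sphk1, the kinase of the cytosol and plasma membrane (chromosome 11, 116530836 to 116536675), had 5 starts in the table and 0 regions, and the nearest region was 24206 bp from a start and assigned to Prpsap1.

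Sgpp2, on chromosome 1 from 78309549 to 78420289, encodes an S1P phosphatase. Region 1 (78323918 to 78324595) lay inside the gene, 13572 bp from its start at the nearest edge. Its pileup was 49 and 50 fragments in knockout replicates 1 and 2, against 30 and 33 in wild-type replicates 1 and 2. Both knockout libraries were above both wild-type libraries.

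On the centred log2 scale Sgpp2 region 1 averaged 0.99 ± 0.14 in knockout and 0.27 ± 0.06 in wild-type libraries (SD, n = 2 each). The difference was 0.72 (SE 0.19), or 1.65 times the wild-type level, and ranked 95 from the highest of the 8704 regions. It was 0.58 between the libraries labelled 1 hour and 0.86 between those labelled 2 hours. The local background was also higher in knockout libraries, at 3.40 and 2.96 fragments per base against 2.02 and 2.68 in wild-type libraries. The fold enrichment of the authors was 11.4 and 12.9 in knockout and 10.3 and 9.24 in wild-type libraries, a centred log2 difference of 0.38.

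The peak at Sgpp2 region 1 was wider in knockout libraries, at 678 and 595 bp, than in wild-type libraries, at 520 and 509 bp. Width and pileup come from the same called peaks, so the width is no separate support. Sgpp2 region 2 (78412774 to 78412973), near the far end of the gene and the neighbouring Farsb, held 9 fragments in knockout replicate 2 alone. The promoter of Sgpp2 had no region in any library.

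Sgpp1, on chromosome 12 from 75714248 to 75735729, encodes the other S1P phosphatase. Its 1 region (75735369 to 75735598), 131 bp inside the start, held 12 fragments in wild-type replicate 2 and was called in no other library. Sgpl1, the S1P lyase gene on chromosome 10 (61098642 to 61147684), had 0 regions, and the nearest region of any gene was 265308 bp from its start. The 5 promoters under a region held 5 to 33 CG dinucleotides and the 10 under none held 1 (Lpar6) to 38 (Sgpl1), against a median of 7 over all promoters of the table.

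Among the 7 regions fitted, 3 had knockout libraries wholly below wild-type libraries (Lpar5 regions 1 and 2 and Sphk2 region 3), 1 had them wholly above (Sgpp2 region 1) and 3 overlapped. Over all 8704 regions, 17.3% had both knockout libraries below and 21.4% had both above. The median difference was -0.04 over the 7 regions and 0.02 over all. By limma with Benjamini-Hochberg adjustment 0 of 8704 regions passed between genotypes (0%), and 757 had an unadjusted p below 0.05.

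**Figure D3:**
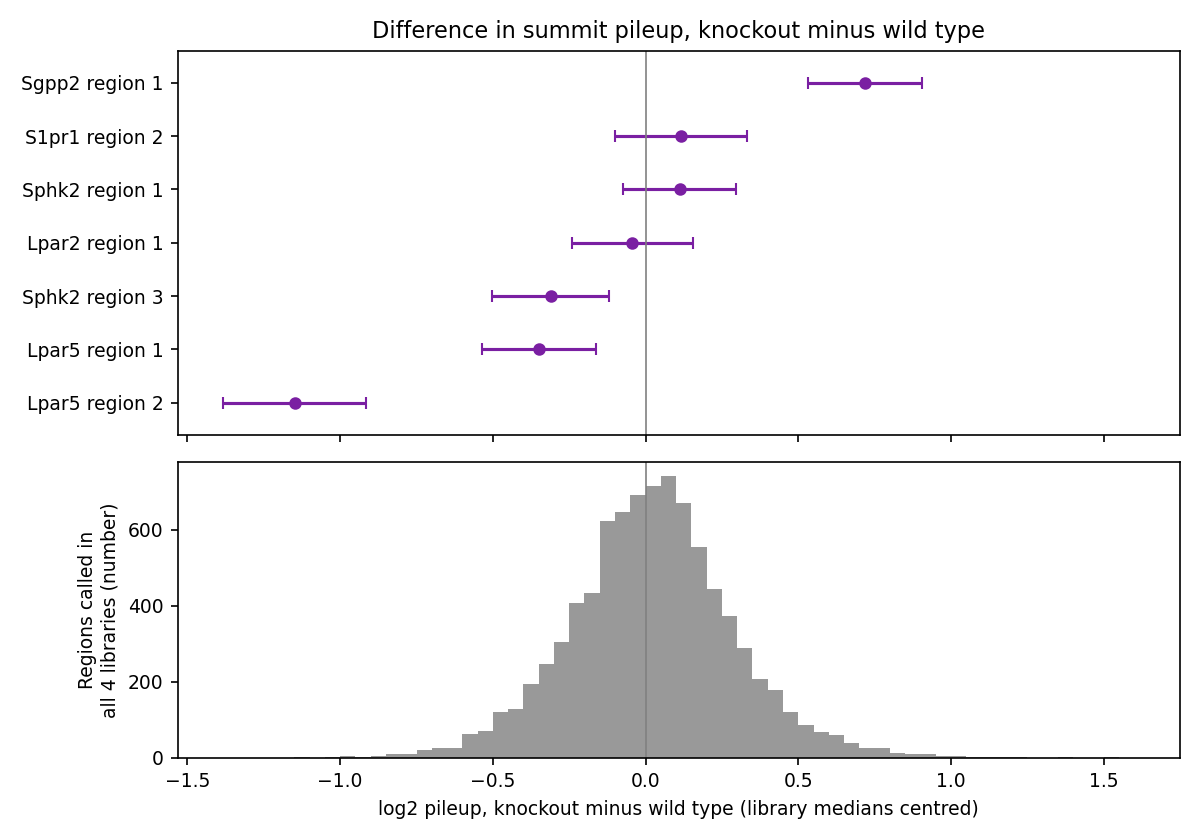
Top, difference of the centred log2 pileup, knockout minus wild type (x axis), of the 7 regions called in all 4 libraries, with bars of 1 standard error from the fit over all regions; bottom, number of all 8704 regions in bins of the same difference. Lpar5 region 2 at -1.15 and Sgpp2 region 1 at 0.72, whose differences chose the set, stand in the tails of the distribution.

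The labelled time had no part in choosing the genes and could be tested. Between libraries labelled 2 hours and 1 hour, with genotype as a term, the 7 regions differed by -0.41 to 0.13, and 0 of 7 passed (limma, adjusted p 0.876 to 0.998). Lpar5 region 2 gave the lower bound (-0.41, SE 0.21) and Sgpp2 region 1 was at 0.06 (SE 0.21). Without a knockout library the difference of Lpar5 region 2 was -0.21, and without a wild-type library it was -0.61, while that of Sgpp2 region 1 was -0.08 and 0.20. Over all regions 0 of 8704 passed (0%), with 486 at an unadjusted p below 0.05. Time and replicate number are the same split of these libraries and cannot be told apart.

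Other genes of the same pathways were read by the same rule. Of 15 further genes of LPA receptors, synthesis and breakdown, 4 had a region (Lpar3, Plpp1, Agk and Gpr55), and 0 had one called in all 4 libraries. Of 9 further S1P receptor and carrier genes 5 had regions, and 3 (33.3%) had one called in all 4 libraries. For the 35 genes of ceramide and sphingolipid metabolism these numbers were 21 and 17 (48.6%), and for the 10 genes themselves 7 and 5 (50%). The shares over all protein-coding genes were 46.5% with a region and 35.4% with one in all 4 libraries.

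Of the S1P carriers, Mfsd2b, the exporter of S1P from red cells, had a region in all 4 libraries with 19 and 23 fragments in knockout and 24 and 28 in wild-type libraries. The difference was -0.22 (SE 0.21) and the groups did not overlap in fragments but did after centring. Abca1, a lipid transporter gene, had 2 regions with a peak in each knockout library and in no wild-type library (2.71% of all regions). They held 12 and 9 fragments in one and 13 and 12 in the other. The strongest Abca1 region, its middle 86342 bp from the gene (chromosome 4, 53246026 to 53246634), had 35 and 25 fragments in knockout and 21 and 24 in wild-type libraries (0.46, SE 0.19). The Abca1 region over a gene end (53159836 to 53160194), its middle 27 bp away, lay the other way, with 10 and 10 fragments in knockout and 15 and 14 in wild-type libraries (-0.41, SE 0.20). Its other regions called in all 4 libraries differed by 0.09 (SE 0.25) inside the gene and by 0.66 (SE 0.19) where the middle lay 43761 bp from it. S1pr3, S1pr4, S1pr5 and Apom had 0 regions.

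In sphingolipid synthesis the strongest regions were at Sptlc2, a subunit of the first enzyme of the pathway, with 67 and 62 fragments in knockout and 58 and 64 in wild-type libraries (0.16, SE 0.18), and at Sptssa, a small subunit of the same enzyme, with 46 and 41 in knockout and 42 and 53 in wild-type libraries (-0.04, SE 0.18). A second Sptssa region called in all 4 libraries had 24 and 21 fragments in knockout and 14 and 13 in wild-type libraries. Its difference of 0.78 (SE 0.19) was above that of Sgpp2 region 1, at 0.72. The median difference over the 25 fitted regions of this list was 0.12, with 19 above and 6 below 0, against 0.02 over all 8704 regions, of which 53.5% were above 0. The differences of the list ran from -0.46 to 0.78. In the fit 0 of these 25 regions and 0 of the 7 fitted regions of the S1P receptors and carriers passed in either contrast (limma, Benjamini-Hochberg adjustment over all 8704 regions). Of the 44 regions of ceramide and sphingolipid metabolism 0 were called in 1 genotype only, and of the 18 regions of the S1P receptors and carriers the 2 at Abca1 were. Over all regions of the series, 2.71% were called in both knockout libraries alone and 2.25% in both wild-type libraries alone.

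**Figure D4:**
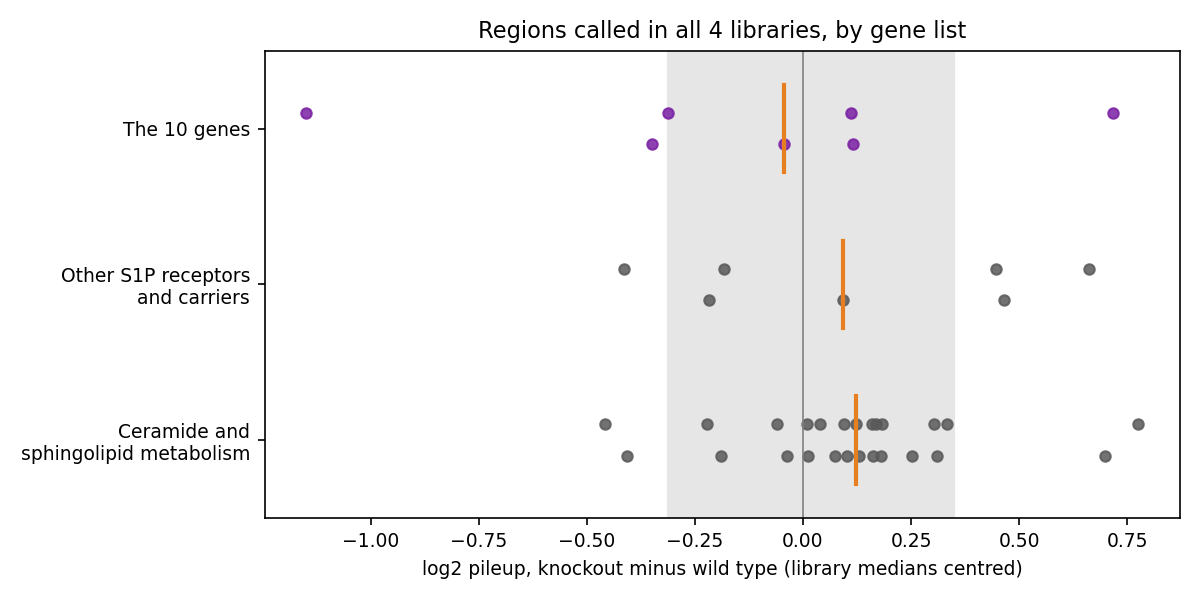
Difference of the centred log2 pileup, knockout minus wild type (x axis), of regions called in all 4 libraries, by gene list (y axis); each point is a region, orange bars are medians and the grey band spans the 10th to the 90th percentile of all 8704 regions. The other LPA genes have no such region. Lpar5 region 2 at -1.15 is the lowest of all 8704 regions and was a reason for choosing the set. It is therefore lower than every point of the other lists. Sgpp2 region 1 at 0.72, the other reason, lies below the highest point of ceramide and sphingolipid metabolism, at 0.78.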

How the data were processed

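ATAC-seq peaks of 2 knockout and 2 wild-type libraries, grouped by their titles, were used as deposited. The authors' lists were called per library. The submitters' processing notes list Bowtie2 2.2.1, MACS2 2.1.0 and several builds, of which the peak names give GRCm38. For threshold, control, read shift and duplicates, settings were not given in the sources used here. Every peak in the deposited lists has a score (about 10 times the −log10 q), the fold enrichment as a ratio over local background, and −log10 p and −log10 q values, all by the authors' caller.

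Nuclear peaks were merged where they overlapped or touched (bedtools 2.31.1 gave the same 15328 regions), without 2 peaks per library on the mitochondrial chromosome. From the ratio and the Poisson p came the whole-number pileup for 99.99% of peaks, with a tolerance of 0.001 in −log10 p. This assumes that the caller did not rescale pileups. A region took its highest pileup. For 8704 regions called in all 4 libraries, log2(pileup + 1) centred on library medians was fitted with limma 3.58.1 (R 4.3.3), without a replicate term, with adjusted p below 0.05 as the threshold. These p-values measure the spread between libraries, which may be technical. The pileup recovery and the fit were tested on simulated data. Precision is limited by small pileups, and total depth is unknown. Other steps used Python 3.11.15, pandas 2.3.3, numpy 2.4.6 and scipy 1.17.1.

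Genes came from the RefSeq table of GRCm38.p6. One further gene list is not reported here. The members, the gene lists and the tests were chosen with earlier results of these data known. All 10 genes were named, and of the other lists those with a region called in 1 genotype only and the 2 with the strongest region. Nop2, genes named for having or lacking a region, and the blood markers were named after their values were seen. Alternatives were lists of equal length, −log10 q of at least 5, other merging and linking, other scalings, pseudocounts and filters, fold enrichment, a replicate block and leaving out single libraries.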

Additional observations from a re-analysis of the deposited data

Results flagged for a closer look

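The difference between genotypes had opposite signs in the libraries labelled 1 hour and 2 hours at 3 of the 7 fitted regions. At Lpar2 region 1, knockout minus wild type on the centred log2 scale was 0.16 at 1 hour and -0.25 at 2 hours. At S1pr1 region 2 it was 0.47 and -0.24, and at Sphk2 region 1 it was 0.23 and -0.00262. Each value sets 1 library against 1 other, and the difference between times was not tested. Of all 8704 regions, 45.5% had opposite signs.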

How the results depend on the processing

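Lpar5 region 2 stayed below 0 and Sgpp2 region 1 above 0 in each of the 10 alternatives. The set was chosen for these differences, and some alternatives could not turn their sign. The replicate block leaves the difference unchanged by design. Leaving out 1 library cannot turn it either, since the groups did not overlap at these regions. Without 1 library, Lpar5 region 2 ran from -1.45 to -0.85 and Sgpp2 region 1 from 0.62 to 0.82. With fold enrichment in place of pileup they were -0.57 and 0.38, since that ratio divides by a local background that moves the same way as the pileup. Scaled by the lowest background they were -1.38 and 0.48, with the median of all regions at -0.21. That scaling called 70 regions between genotypes, 5 higher and 65 lower, and 1 region between times, against 0 and 0; the cause was not tested.

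Signs turned at Lpar2 region 1 (0.13 without knockout replicate 2, 0.14 with fold enrichment), at S1pr1 region 2 (3 alternatives) and at Sphk2 region 1 (1 alternative). At S1pr1 region 2 and Sphk2 region 1 these included the scaling by the lowest background, which moved the median of all regions to -0.21. With the replicate block 2 of 8704 regions passed between genotypes, against 0; deviations of same-numbered libraries had a correlation of 0.00216 over regions, so the numbers were not taken as pairs. Without a genotype term 0 passed between times. With the genotype term, leaving out 1 library left the time comparison no residual degrees of freedom, so it gave differences with no test. Leaving out 1 library without that term was not run.

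The number of regions of the 10 genes was 12 to 14 under every alternative, including the merging of gaps up to 100 bp, chosen after seeing the data. The number called in 1 genotype only was 1, and 0 with lists of equal length and with −log10 q of at least 5; the peaks of S1pr1 region 3 have −log10 q of 2.13 and 4.94, both under that limit. Without 1 library it was 1 to 4, but the genotype left with 1 library then needs only 1 call. These counts are therefore not comparable with the main count, and the share of all regions under those settings was not computed. Pileups ran from 7 to 63 fragments, and the smallest detectable difference was not measured.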
